A study of Mus musculus with 4 samples.

Results

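Neurofilaments are the intermediate filaments of axons. Their light, medium and heavy chains, encoded by *Nefl*, *Nefm* and *Nefh*, co-assemble with α-internexin (*Ina*) or peripherin (*Prph*) into filaments that set the calibre of the axon, and their genes are active mainly in neurons. The synucleins are small presynaptic proteins, of which the β and γ forms are encoded by *Sncb* and *Sncg*. GAP-43 (*Gap43*) sits under the membrane of growing axon tips, and the ubiquitin hydrolase PGP9.5 (*Uchl1*) is a common marker of neuronal cell bodies and nerve fibres. In the inner ear these proteins occur in the spiral ganglion neurons and their fibres, which grow towards the prosensory part of the cochlear duct.

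The 9 genes *Nefl*, *Nefm*, *Nefh*, *Ina*, *Prph*, *Sncb*, *Sncg*, *Gap43* and *Uchl1* were examined among 29924 gene names on the array. All probes that the files give for these symbols were used, 11 in number, with a second probe for *Ina* and for *Nefh*. The genes were selected on mutant over control ratios measured on these same arrays. Their ratios are therefore a description, and no p value is given for them. Of the 9 genes, 8 had a probe well above background and entered the comparison of 21042 genes. *Sncb* was not well above background in any of 8 channel measurements, and neither was the second *Nefh* probe.

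RNA came from whole cochlear ducts of E14.5 mouse embryos of the NMRI background, dissected free of the spiral ganglion. The mutants (*Sox2-Tbx2LOF*) carry CreERT2 inserted at *Sox2* and floxed *Tbx2* alleles and, by the breeding in the methods, the *R26 mTmG* reporter, so the recombinase acts only in cells that use *Sox2* and only after tamoxifen. The labels give the controls as *Tbx2* fl/n.d., and the methods describe cre-negative littermates. Mothers of both genotypes received 4 mg of tamoxifen by mouth at E12.5. Each of 4 two-colour arrays carried 1 mutant and 1 control pool of many ducts. Pools were female on arrays 1 and 2 and male on arrays 3 and 4, and mutant RNA carried Cy5 on arrays 1 and 3 and Cy3 on arrays 2 and 4.

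All 4 arrays lay on 1 slide, and between 69.2% and 72.0% of probes were well above background in a channel. The floxed gene *Tbx2* stood at -0.12 ± 0.098 (SD, n = 4 arrays) as the log2 ratio mutant/control, below 0 on 4 of 4 arrays (adjusted p = 0.124, limma). *Esr1*, whose sequence is part of CreERT2, rose by 2.17 ± 0.14 (adjusted p = 6.0e-06), and *Sox2* stood at 0.01 ± 0.18 (adjusted p = 0.935). Over all 21042 genes the median log2 ratio was 0.0024.

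The probes decide which part of each transcript is read. Those of *Nefl* and *Nefm* lie on chromosome 14 at chr14:68705638-68705698 (plus strand) and chr14:68738193-68738252 (minus strand) of mm9, the build of the files, 32494 bases apart. No other protein-coding gene lies between *Nefl* and *Nefm* in the RefSeq table. The *Nefh* probe that stands for the gene lies at chr11:4838758-4838817 and the second at chr11:4839396-4839455, both on the minus strand. The *Ina* probes lie at chr19:47098781-47098840 and, 509 bases further, at chr19:47099350-47099409, both on the plus strand. The *Prph* probe lies at chr15:98889042-98889101 (plus), *Sncg* at chr14:35183497-35183556 (minus) and *Gap43* at chr16:42248714-42248773 (minus). The *Uchl1* probe spans chr5:67073886-67074977 (plus) and the *Sncb* probe chr13:54860865-54861250 (minus), far more than their own length, so both cross an intron and read spliced RNA.

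Probe sequences are printed for 5 probes that read the protein-coding part, to show what the array read for a gene with a ratio far from 0 (*Nefm*), for genes with ratios near 0 (*Prph*, *Uchl1*) and for probes without signal above background (*Sncb*, the second *Nefh* probe). Capitals mark the stop codon where the probe reaches it, and letters beyond the stop codon are left out.
*Nefm*: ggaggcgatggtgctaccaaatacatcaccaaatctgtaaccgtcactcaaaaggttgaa
*Nefh*, second probe: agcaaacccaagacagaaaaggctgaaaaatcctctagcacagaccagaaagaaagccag
*Prph*: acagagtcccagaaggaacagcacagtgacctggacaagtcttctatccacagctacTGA
*Sncb*: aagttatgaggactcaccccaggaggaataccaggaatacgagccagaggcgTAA
*Uchl1*: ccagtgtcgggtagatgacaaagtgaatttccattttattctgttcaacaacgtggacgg

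The neurofilament triplet was lower in the mutant, with *Nefm* lowest. Levels are normalised log2 intensities of a pool and are compared only within a probe. *Nefm*, the medium chain, measured 9.98, 9.81, 10.08 and 9.84 in mutant pools 1 to 4 and 11.00, 10.40, 10.75 and 10.43 in control pools 1 to 4. Every mutant pool lay below every control pool. The log2 ratios on arrays 1 to 4 were -1.02, -0.58, -0.67 and -0.59, with a mean of -0.72 ± 0.21 (SD, n = 4), or 60.9% of control. Array 1 gave the lowest value, and the other 3 lay close together.

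*Nefl*, the light chain on which the other chains assemble, measured 10.70, 10.41, 10.68 and 10.50 in the mutant pools against 11.30, 10.79, 11.19 and 10.93 in the control pools. The groups did not overlap. Its ratios of -0.61, -0.39, -0.51 and -0.42 had the mean -0.48 ± 0.098, or 71.6% of control. The 4 spots of the probe on an array scattered by an SD of at most 0.068 across the 4 arrays.

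*Nefh*, the heavy chain with the long phosphorylated tail, measured 7.70, 7.93, 7.80 and 7.93 in the mutant pools and 8.19, 7.94, 8.42 and 8.34 in the control pools. The highest mutant pools and the lowest control pool, on array 2, were separated by only 0.01. Its ratios were -0.48, -0.01, -0.62 and -0.42, a mean of -0.38 ± 0.26 (76.8% of control), the widest spread of the 9 genes. The second *Nefh* probe gave -0.06, 0.06, -0.11 and -0.02 without rising above background and carries no information on the ratio.

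*Ina* encodes α-internexin, the neurofilament subunit of early neurons. Its brighter probe measured 8.09, 8.02, 8.39 and 8.01 in the mutant and 9.14, 8.57, 9.13 and 8.53 in the control pools, again without overlap. The ratios were -1.05, -0.55, -0.73 and -0.51, with a mean of -0.71 ± 0.25, or 61.1% of control. The second *Ina* probe gave -0.17, -0.04, -0.13 and -0.25, a mean of -0.15 ± 0.087 (90.4% of control), although it too was well above background in 8 of 8 measurements. Both probes were below 0 on every array, but the second lay higher by 0.89, 0.51, 0.60 and 0.26 (mean 0.57 ± 0.26), so the size of the *Ina* difference depends on the probe.

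*Prph*, the intermediate filament of peripheral neurons, lay near 0 apart from array 1. Mutant pools measured 6.86, 6.86, 6.92 and 6.98 and control pools 7.20, 6.82, 6.98 and 7.02, so the groups overlapped. Its ratios of -0.34, 0.05, -0.06 and -0.04 (mean -0.10 ± 0.17) rest on array 1, and without that array the mean was -0.03.

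**Figure D1:**
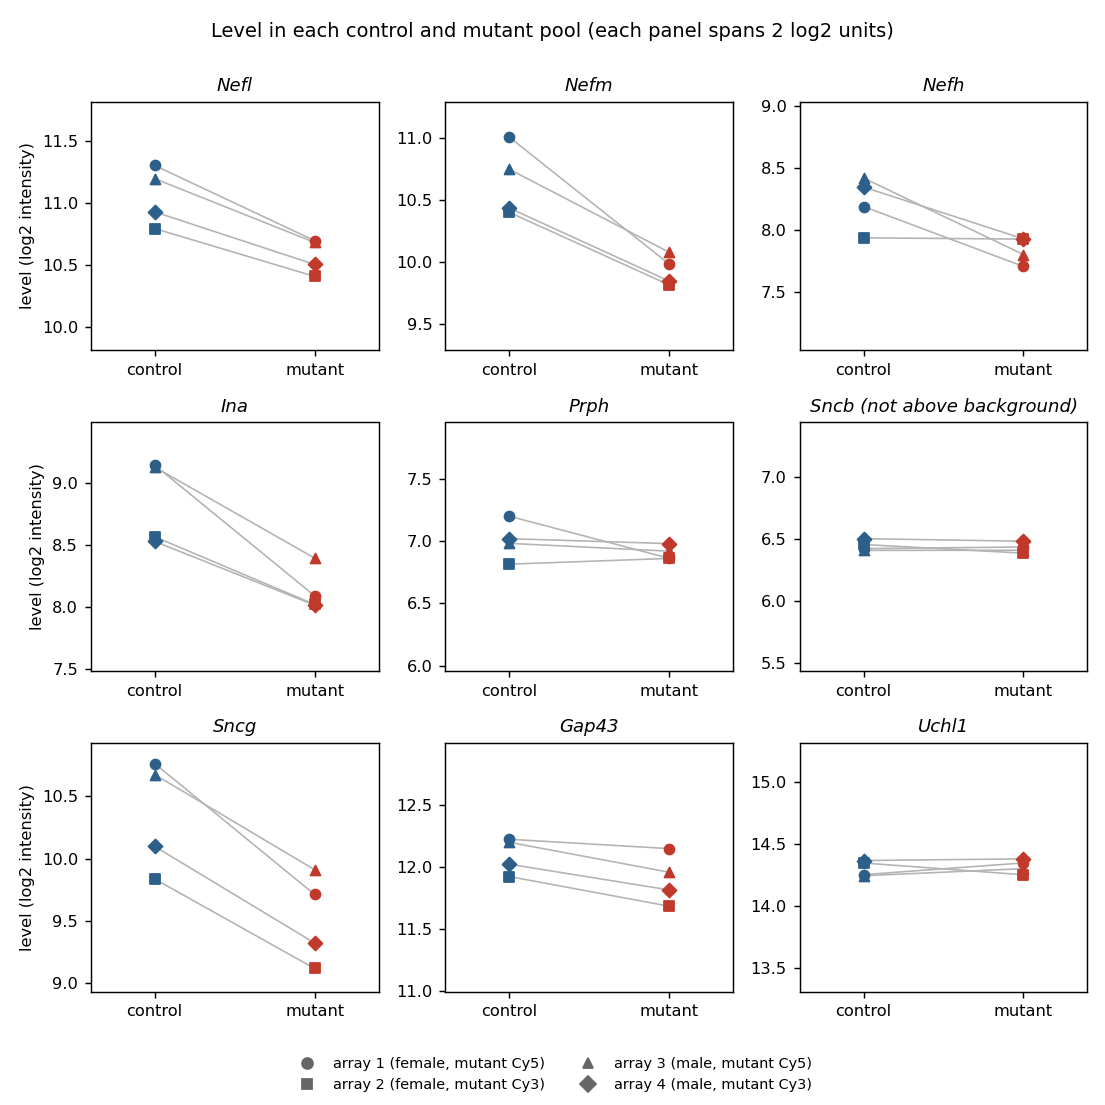
Level (normalised log2 intensity, y axis) of each gene's brightest probe in 4 control pools (blue) and 4 mutant pools (red). Lines join the pools of an array, marker shapes name the array, and each panel spans 2 log2 units. *Nefl*, *Nefm*, *Nefh* and *Ina* have all mutant points below all control points, *Sncg* and *Gap43* go down along every line with overlapping groups, and *Prph*, *Sncb* and *Uchl1* overlap.

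Among the synucleins, γ-synuclein had the ratio farthest from 0 of the 9 genes. *Sncg* measured 9.71, 9.12, 9.91 and 9.32 in the mutant pools and 10.76, 9.84, 10.68 and 10.10 in the control pools. The mutant pool was lower on each array, but the groups overlapped because mutant pool 3 lay above control pool 2. The ratios were -1.05, -0.72, -0.77 and -0.78, a mean of -0.83 ± 0.15, or 56.3% of control. *Sncg* ranked 28 from the lowest among 21042 genes, against 41 for *Nefm*, 42 for *Ina*, 96 for *Nefl* and 149 for *Nefh*.

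*Sncb*, β-synuclein, measured between 6.38 and 6.50 in all 8 pools without rising above background, and its ratios of 0.01, -0.07, 0.00 and -0.02 carry no information on the gene.

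*Gap43* was lower on each array by a small amount. Its pools measured 12.15, 11.68, 11.96 and 11.81 in the mutant and 12.22, 11.92, 12.20 and 12.02 in the control, with overlap between the groups. The ratios were -0.08, -0.24, -0.24 and -0.21, a mean of -0.19 ± 0.078 or 87.6% of control. *Uchl1* measured 14.35, 14.25, 14.30 and 14.38 in the mutant and 14.25, 14.35, 14.25 and 14.37 in the control. Its ratios of 0.09, -0.09, 0.06 and 0.01 (mean 0.02 ± 0.082) lay on both sides of 0.

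**Figure D2:**
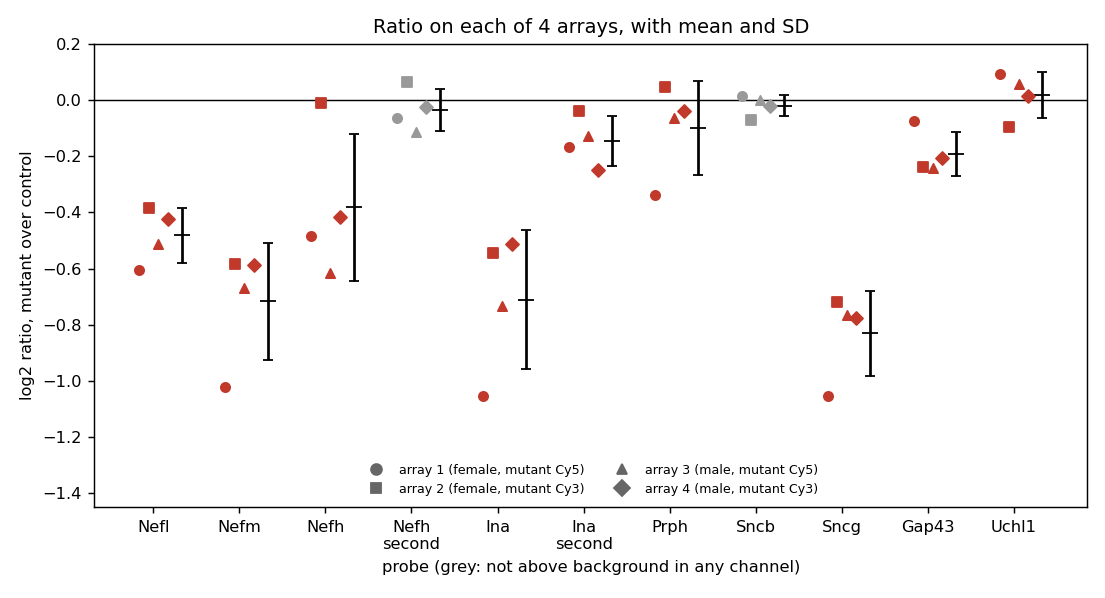
Log2 ratio of mutant over control (y axis) for the 11 probes (x axis), 1 marker per array, with the mean and SD over 4 arrays in black. Grey markers are probes not well above background. Array 1 gives the lowest value for *Nefl*, *Nefm*, *Ina*, *Prph* and *Sncg*, and the second *Ina* probe lies nearer to 0 than the first.

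Counts put these values beside all genes, and since the ratios chose the members nothing is read from them. Lower at an adjusted p under 0.05 (limma, Benjamini-Hochberg over all genes tested) were 6 of the 8 tested members (*Nefl*, *Nefm*, *Nefh*, *Ina*, *Sncg* and *Gap43*) and 2.92% of all genes. Of these 6, *Gap43* no longer passed when any 1 array was left out, and *Nefh* not without array 1 or without array 3. None was higher, against 2.26% of all genes. With a fold of at least 1.5 as a further condition, 3 members were called lower (*Nefm*, *Ina* and *Sncg*) against 0.309% of all genes, and none higher against 0.133%. All mutant pools lay below all control pools for 4 members and for 2.54% of all genes. Fewer cells of a type and less RNA per cell cannot be told apart in such pools.

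Levels also differed between arrays in a way that genotype does not cover. On arrays 1 and 3, where the mutant carried Cy5, the mean level of both pools of *Sncg* was 10.24 and 10.29, against 9.48 and 9.71 on arrays 2 and 4. The difference of 0.67 between these pairs of arrays stands beside a *Sncg* ratio of -0.83 within arrays, and 0.076% of all genes tested had a difference of at least 0.6. For *Ina* it was 0.41, for *Nefm* 0.33, for *Nefl* 0.31 and for *Gap43* 0.27, whereas *Nefh*, *Prph* and *Uchl1* lay between -0.05 and 0.07. A difference of at least 0.2 was found for 2.87% of all genes, and the median over all genes was -0.01. Both genotypes took part, since mutant pools of *Sncg* were higher by 0.59 and control pools by 0.75 on arrays 1 and 3. The brighter *Ina* probe differed by 0.41 and the second *Ina* probe by 0.13.

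The ratio within an array cancels this difference, but a comparison of pools with the same dye does not. Mutant minus control within Cy3, with mutant pools from arrays 2 and 4 and control pools from arrays 1 and 3, was -1.50 for *Sncg*, -1.12 for *Ina*, -1.05 for *Nefm* and -0.79 for *Nefl*. Within Cy5 the same differences were -0.16, -0.30, -0.39 and -0.17. *Gap43* was -0.46 within Cy3 and 0.08 within Cy5, while *Nefh* gave -0.38 and -0.39. All 62 other genes called lower were lower within each dye, with medians of -0.88 within Cy3 and -0.69 within Cy5. Dye layout and array cannot be told apart here, and the source of the difference was not tested.

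**Figure D3:**
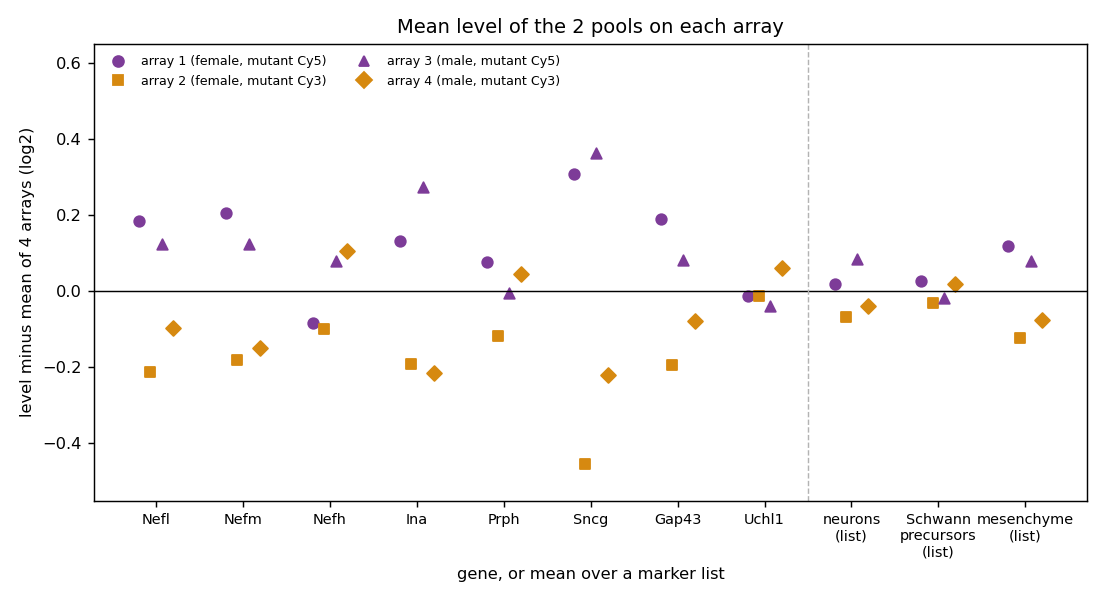
Mean level of the 2 pools on an array minus the mean over 4 arrays (y axis, log2) for the 8 tested genes and for the means over 3 marker lists (x axis). Arrays 1 and 3 (purple) lie above arrays 2 and 4 (orange) for *Nefl*, *Nefm*, *Ina*, *Sncg* and *Gap43*, by 0.67 for *Sncg*. The mesenchyme list shows a difference of 0.20, the neuron list 0.11 and the Schwann cell precursor list 0.01.

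Sex was the one contrast independent of the choice of genes. The log2 ratio of male minus female arrays was 0.03 (SE 0.085) for *Nefl*, 0.17 (SE 0.10) for *Nefm*, 0.18 (SE 0.095) for *Ina*, 0.12 (SE 0.10) for *Sncg* and -0.07 (SE 0.089) for *Gap43*. For *Nefh* the ratio was -0.25 in female and -0.52 in male pools, a difference of -0.27 (SE 0.094). No member passed the genotype by sex interaction (adjusted p = 1.00 for each, limma), and 0% of all genes did. At an unadjusted p under 0.05, 1 member (*Nefh*) and 2.65% of all genes did. The mean level in male minus female pools was 0.18 for *Nefh* (SE 0.054) and 0.14 for *Sncg* (SE 0.30), and lay between -0.02 and 0.06 for the other 6. No member passed the test of that difference (adjusted p = 1.00 for each, limma), which 0.038% of all genes passed. At an unadjusted threshold of 0.05, *Nefh* and 3.08% of all genes passed it. When dye layout was added to the level fit, after seeing the data, the SE was 0.072 for *Sncg* and 0.061 for *Nefh*. No member passed then either. With 2 arrays per sex and standard errors of these sizes, differences as large as those printed here did not pass. The absence of a call therefore carries little information.

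The lists of relatives and of cell type markers below were also chosen with earlier results of these data known. Their adjusted p values and counts are therefore a description too. Relatives of these genes lay near 0 for the most part. Of 13 other intermediate filament and linker genes 12 were tested (*Des*, desmin, was not well above background), and 1 was lower at an adjusted p under 0.05. This was *Dst*, which encodes a linker of filaments to the cytoskeleton, at -0.16 ± 0.049 (adjusted p = 0.0398, limma), but its 4 tested probes ranged from -0.20 to 0.08. *Vim* (vimentin), the filament of progenitors and mesenchyme, stood at 0.11 ± 0.047 and the list's median at 0.02, beside 0.0024 over all genes. None of 10 genes of the synuclein and ubiquitin hydrolase list passed in either direction, and their median was -0.03. The values farthest from 0 in that list were those of *Uchl3*, a close relative of *Uchl1*, at -0.11 ± 0.27, and *Sncaip*, which encodes a synuclein-binding protein, at 0.10 ± 0.089.

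Of 19 growth cone and axon membrane genes, 4 were lower and 1 higher, with a median of 0.0022. The cell adhesion molecules *Chl1* (-1.0 ± 0.20, adjusted p = 0.000206) and *Nrcam* (-0.78 ± 0.23, adjusted p = 6.7e-05), both of the L1 family, were called lower. A second *Chl1* probe gave -0.58. *Gpm6b*, a membrane glycoprotein of axons and glia, and *Crmp1*, a cytosolic partner of semaphorin signalling, were lower by less (-0.19 and -0.17), and *Cntn1*, an adhesion protein of axons, was higher at 0.19 ± 0.31 but below 0 on 2 of 4 arrays. Among 13 axonal transport motors, *Kif5a*, the neuronal kinesin heavy chain that carries neurofilaments, was lower by its brightest probe (-0.27 ± 0.13, adjusted p = 0.0101) while its second tested probe gave -0.0038, and the other 12 did not pass. *Kif5b* and *Kif5c*, its relatives, stood at -0.22 ± 0.27 and -0.09 ± 0.070.

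Some neuronal markers moved in the same pools. Of 16 markers 15 were tested (*Neurod1* was not well above background), and 7 were lower and 3 higher, with a median of -0.20. At the same adjusted p under 0.05, 2.92% of all genes were lower and 2.26% higher. *Celf3* (-1.17 ± 0.54) and *Elavl3* (-1.08 ± 0.36), which encode neuronal RNA-binding proteins, and *Pou4f1* (-0.75 ± 0.13), a transcription factor of sensory neurons, were called lower. *Stmn2*, *Tubb3*, *Elavl4* and *Slc17a6* were lower by less, between -0.41 and -0.35. *Isl1*, *Syt1* and *Ntrk3* were higher, between 0.16 and 0.24, although the 4 tested probes of *Ntrk3* ranged from -0.03 to 0.40. The second *Elavl4* probe gave -0.19. The other 5 did not pass: *Dcx* at 0.01, *Snap25* at -0.03, *Gng3* at -0.03, *Rbfox3* at -0.20 and *Ntrk2* at 0.16. The mean level over the 15 markers lay between 10.25 and 10.38 in mutant pools and between 10.47 and 10.64 in control pools. It was lower in the mutant on 4 of 4 arrays, and it includes the 3 called genes, whose ratios lay farthest from 0. Their part in the ratios of the 9 genes was not tested. The dissection removed the spiral ganglion. Signal of the tested neuronal markers was above background in all pools, and which cells it came from was not tested.

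Some markers of Schwann cell precursors, the glia that accompany the nerve fibres, also moved. *Foxd3* (-1.17 ± 0.22, adjusted p = 6.7e-05) and *Cdh19* (-0.63 ± 0.19, adjusted p = 0.000459) were called lower, and 5 others, among them *Sox10* at 0.01, did not pass. The list mean lay between 10.65 and 10.71 in mutant and between 10.84 and 10.94 in control pools, and its part was likewise not tested. Of 11 hair cell markers 2 were higher, *Myo7a* (0.17) and *Rasd2* (0.60 ± 0.36, adjusted p = 0.00398). No marker of melanocytes (5), blood (5) or endothelium (4) passed. Mesenchyme markers split into *Col1a1* higher (0.27) and *Postn* lower (-0.26), with 7 of 9 not passing. Epithelial markers of the duct included *Gata3* at 0.34 and *Fgf10* at -0.47, with the other 7 of 9 not passing. Of 7 prosensory markers *Hey2* (0.36) and *Isl1* (0.20) were higher and *Jag1* (-0.19) lower. *Isl1* stands in both the neuron and the prosensory list. All 9 epithelial and all 7 prosensory markers were above background in enough channels to be tested. So were all listed markers of hair cells, mesenchyme, melanocytes, blood and endothelium, and passing this filter therefore does not tell which tissue was labelled.

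The genes whose 4 ratios were most like those of *Sncg*, the member farthest from 0, were *Pou4f1* (root mean square difference 0.082 over 4 arrays, mean -0.75 ± 0.13), *Chgb*, which encodes a protein of secretory granules (0.11, mean -0.93 ± 0.21), and *Ngfr*, the low-affinity neurotrophin receptor (0.12, mean -0.74 ± 0.086). All 3 also had higher levels on arrays 1 and 3 than on arrays 2 and 4, by 0.34 for *Pou4f1*, 0.34 for *Chgb* and 0.22 for *Ngfr*. *Elavl3* differed by 0.65 in the same direction, *Foxd3* by 0.36, *Tubb3* by 0.26 and *Esr1* by 0.06. Over the 62 genes called lower that are no members, the median difference was 0.02, with 37 above 0 and 25 below. Of the marker lists, mesenchyme had the largest difference in mean level, 0.20, against 0.11 for neurons. Hair cells and melanocytes each stood at -0.15.

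**Figure D4:**
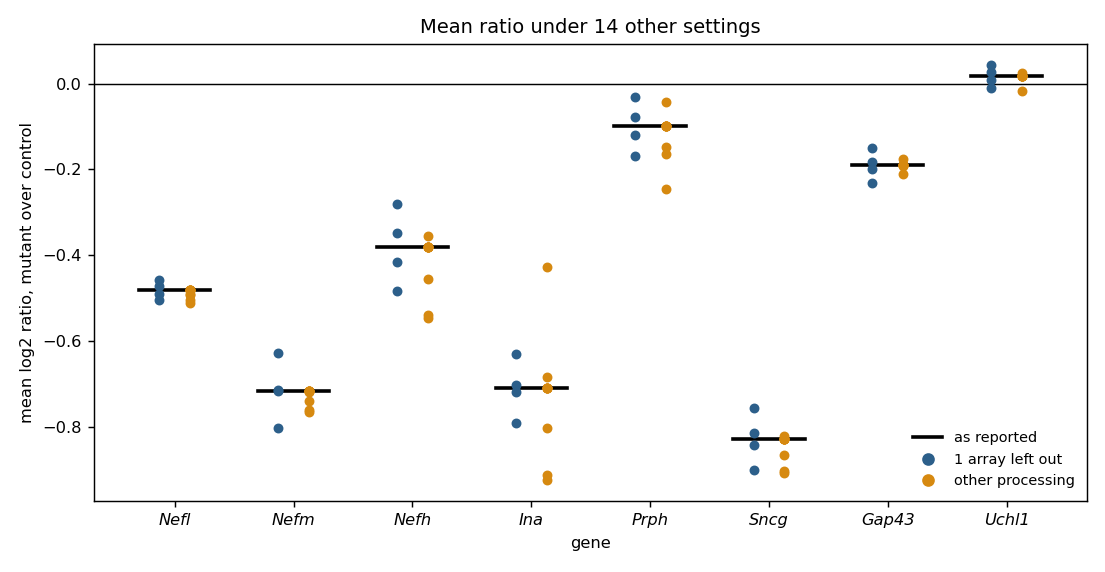
Mean log2 ratio of mutant over control (y axis) of the 8 tested genes as reported (black bar), with 1 of the 4 arrays left out (blue) and under 10 other processing settings (orange). Only *Ina* moved by more than the SD of its 4 arrays, to -0.43 when the mean of both probes was used, and all genes but *Uchl1* stayed below 0.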

How the data were processed

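The members and the gene lists were chosen with earlier results of these data known. The authors deposited Agilent Feature Extraction (10.7.3.1) output, whose intensity values are spot and local background brightness in both dyes, not normalised. Agilent's processed intensity values are background-subtracted and dye-normalised. The deposited log10 ratio of Cy5 over Cy3 was not used. The authors' series value table holds a score per probe and array that matches a signed fold change and whose normalization is not given in the sources used here. Its correlation across probes with the ratios computed here was 0.882 to 0.913. According to the headers the design was a custom one that prints every probe 4 times, and the study describes a catalogue whole-genome array. Symbols and mm9 positions were taken from the files.

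Background was corrected by normexp (offset 50) and log2 ratios by loess within arrays (limma 3.58.1, R 4.3.3), without control and flagged spots. Replicate spots were averaged per probe. A probe entered the fit (27963 of 39429) if at least 4 of its 8 channel measurements were well above background, and each gene was represented by its brightest. Levels are separate channels after loess and Aquantile. Genes were fitted with genotype and a dye intercept, with 2 residual and 5.65 prior degrees of freedom, and called at a Benjamini-Hochberg adjusted p under 0.05 and a fold of at least 1.5. The interaction of genotype and sex, and the level against sex, were fitted in the same way. Code was tested on simulated data. The number of arrays limits the precision, and each array holds 1 independent pool per genotype.

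All members were named, as were *Tbx2*, *Sox2* and *Esr1* and, per list, every called gene and then the largest ratios up to 3 genes. Other list genes past the adjusted p, *Sox10* and the 5 neuron markers that did not pass were named after their values were seen. Single values of some list genes are not reported here. Alternatives were Agilent's processed signals, offset 10, median centring, other filters, no dye term, separate channels, the mean over probes, the authors' table, median scaling and leaving out each array.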

Additional observations from a re-analysis of the deposited data

Results flagged for a closer look

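The 4 *Sncg* ratios were marked because array 1, at -1.05, lay apart from the other 3, which ran from -0.78 to -0.72. Its gap to the nearest of them was 0.830 of the whole range, just above Dixon's critical value for 4 values. Of 27 groups of 4 values examined this was the 1 marked, and chance marks about 1 in 20 such groups. Without array 1 the mean *Sncg* ratio was -0.76.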

How the results depend on the processing

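Each member's ratio was recomputed under 14 alternatives. Of 112 values, 111 stayed within 1 SD of the arrays. *Uchl1*, at 0.02, changed sign with median centring (-0.02) and without array 4 (-0.01), no other member did, and *Ina* moved to -0.43 with the mean over its probes, when 2 members were called lower instead of 3. Separate channels without the array as a replicate block called 1 member (*Nefm*), whereas with the block 3 members, 65 genes lower and 28 higher were called. Same-numbered pools share an array, so the reported ratios are paired by array. At the adjusted p alone, *Nefh* no longer passed without array 1, without array 3, without the dye term, with processed signals or with the authors' table, nor did *Gap43* with any array left out, in these 3 settings, with offset 10 or with the block. The 65 genes called lower became 99 with the authors' table and 117 with processed signals in place of normexp and loess, which raised the 28 called higher to 49. Genes past the interaction numbered 0, but 19 with median centring and 0 to 4 with an array left out. Genes past the level test numbered 8, but 0 with the filter on all 8 measurements, 13 with median scaling and 5 to 15 with an array left out. Dye layout as a term, added after seeing the data, left 8. No member passed either test under any of these settings. The cause of these changes was not tested. *Sncb* and the second *Nefh* probe are limited by signal at background.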
